A study of Mus musculus with 6 samples.

Results

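The genes described here encode the parts of the striated muscle sarcomere, the contractile unit of the myofibril, other than its myosin heavy chains and actins. They were chosen by symbol from 46 names: the giant filament proteins, M-band and thick-filament binding proteins, myosin light chains and their kinase, troponins, tropomyosins, thin-filament end proteins, Z-disc proteins, desmin-linked and stretch-linked proteins, and assembly factors. 45 of the 46 had a row in the deposited expression table of 18943 genes. The remaining name, Myoz3, had no row and was not analysed here.

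The RNA came from FACS-purified muscle stem cells (MuSCs) of WT C57BL/6 mice, 8 weeks old, cultured for 5 days. All cultures were grown in growth medium after the sort, so the data describe cultured cells and not MuSCs in muscle. One group received the vehicle DMSO, one received endothelin-3 (ET-3) and one received neurotensin (NT), peptides that signal through G protein-coupled receptors, and each group had 2 libraries. The labels give 100 nM for both ligands, whereas the methods of the study name micromolar doses, so the dose is uncertain. No agent, deletion or allele other than these 3 treatments separated the groups. The comparisons asked how the expression of sarcomere genes in cultured MuSCs changed under each ligand, and whether the 2 ligands differed. The labels do not say whether the 2 libraries of a group came from separate mice or cultures, so p-values measure only the spread between these libraries.

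In a sarcomere, thin filaments of actin, tropomyosin and troponin are anchored at the Z-disc by alpha-actinin and its partners, and thick filaments of myosin are held in register at the M-band. Titin spans from Z-disc to M-band, and nebulin runs along the thin filament. Cycling myoblasts carry little of this apparatus, and its genes are switched on together when myoblasts leave the cell cycle, differentiate and fuse into myotubes.

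Promoter sequences are shown first because most sarcomere genes moved together, and these 4 differed in how far they moved. They are the 250 bases before the RefSeq start of Mybph and Myl1, which fell to traces, of Mylpf, which fell to an intermediate level, and of Tpm3, which stayed at or above its control level (RefSeq, build GRCm38.p6, written 5′ to 3′ in the direction of transcription). Capitals mark CAGCTG, one form of the E-box bound by myogenic basic helix-loop-helix factors, and GGAATG, the reverse complement of the MCAT element CATTCC bound by TEAD factors.
Mybph (chr1:134193198-134193447, plus strand): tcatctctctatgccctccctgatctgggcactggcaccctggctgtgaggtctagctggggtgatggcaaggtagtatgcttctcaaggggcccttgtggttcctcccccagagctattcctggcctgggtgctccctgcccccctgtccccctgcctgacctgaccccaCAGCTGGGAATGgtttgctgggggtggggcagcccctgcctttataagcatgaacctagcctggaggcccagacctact
Myl1 (chr1:66945057-66945306, minus strand): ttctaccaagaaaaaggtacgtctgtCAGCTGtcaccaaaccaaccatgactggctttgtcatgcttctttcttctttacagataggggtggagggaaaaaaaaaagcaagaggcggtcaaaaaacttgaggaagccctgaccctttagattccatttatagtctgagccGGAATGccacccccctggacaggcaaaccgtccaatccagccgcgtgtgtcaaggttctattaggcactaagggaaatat
Mylpf (chr7:127211358-127211607, plus strand): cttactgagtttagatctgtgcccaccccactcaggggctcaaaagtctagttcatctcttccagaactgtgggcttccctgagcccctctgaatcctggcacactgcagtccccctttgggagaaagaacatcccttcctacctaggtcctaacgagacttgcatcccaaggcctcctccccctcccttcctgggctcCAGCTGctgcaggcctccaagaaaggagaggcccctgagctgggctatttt
Tpm3 (chr3:90072401-90072650, plus strand): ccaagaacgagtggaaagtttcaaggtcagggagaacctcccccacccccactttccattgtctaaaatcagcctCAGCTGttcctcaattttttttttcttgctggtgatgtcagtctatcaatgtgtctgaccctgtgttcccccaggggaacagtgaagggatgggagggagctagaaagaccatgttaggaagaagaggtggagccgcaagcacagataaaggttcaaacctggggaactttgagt

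The 4 were taken from the 11 genes with CAGCTG in this window, which began 79 bases before the start in Mybph, 224 bases in Myl1, 51 bases in Mylpf and 175 bases in Tpm3. GGAATG followed directly on it in Mybph, 73 bases before the start, and lay 80 bases before the start in Myl1. For a gene with more than 1 window, the one with the lowest start coordinate is printed. Tpm3 has alternative promoters, so its gene-level value cannot be assigned to the printed one. RefSeq windows were present for 34 of the 45 genes, with 41 windows in all, and the same 250 bases were searched on both strands. CAGCTG was in 29.3% of the 41 windows (12 windows of 11 genes) and in 13.0% of all 32851 windows. CATTCC was in 22.0% against 12.6%. The general E-box CANNTG, which includes CAGCTG, was in 80.5% against 66.2%. The MEF2 site was in 9.76% of windows, those of Myom3, Myoz2, Ttn and Xirp2, against 2.92%, and the CArG box was in 9.76%, those of Ldb3, Myl3 and Myom1, against 1.47%. In the 33 windows of the 28 genes called lower under both ligands, CAGCTG was in 27.3%, CANNTG in 75.8% and CATTCC in 21.2%. The MEF2 site was in 12.1% of these and the CArG box in 9.09%. Except for MEF2, these shares were not above those of the 41 windows. A link between a motif and the fall of a gene was not tested. All matches are letters in a sequence, and no binding was measured.

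The values are reads per gene scaled by 1 factor per library, in which 1 read was worth 0.781 to 1.19 units, and the library totals were 4214458 to 4600575 units (3629301 to 5396581 reads). In all 6 libraries the cells carried the defining transcripts of MuSCs and myoblasts: Pax7, the MuSC transcription factor, was at 857 and 1070 in DMSO, 1754 and 1730 in ET-3 and 1653 and 1599 in NT. Myod1, the myoblast determination factor, was at 1100 to 1539. The whole list of 10 MuSC and myoblast markers summed to 8776 and 9539 in DMSO and 6734 to 7862 under the ligands, with Itga7 the highest. Of its 9 tested genes, 3 were called lower under ET-3 (14.9% of all tested genes) and 2 under NT (13.2%), and 0 higher (6.62% and 7.30%). Myog, which drives terminal differentiation, was at 1157 and 1335 in DMSO and at 28 to 38 in the 4 ligand libraries, so it moved with the sarcomere genes. Of the markers of other cells, the 8 for smooth muscle and pericytes also moved with them, with a summed value of 3030 and 3260 in DMSO and 727 to 802 under the ligands. Acta2, Rgs5, Pdgfrb and Abcc9 were called lower and made up most of that difference, whereas the defining smooth muscle genes Myh11 and Cnn1 were at 0 to 4 in every library. The cardiomyocyte list, of which 2 of 7 had a row, summed to 106 and 130 in DMSO and 3 to 7 under the ligands. The fibroadipogenic list, of which 5 of 8 had a row, summed to 1524 and 1710 in DMSO and 1058 to 1226 under the ligands, nearly all of it Col3a1. Its members moved in both directions, with log2 fold changes from -1.29 to 2.34 under ET-3 and -1.28 to 2.59 under NT. The endothelial list, of which 5 of 8 had a row, summed to 12 and 26 in DMSO and 85 to 109 under the ligands. The Schwann cell list (4 of 6) summed to 160 and 182 in DMSO and 641 to 713 under the ligands, mostly Ngfr, and the macrophage list (3 of 8) to 21 to 45 in all libraries. Schwann cell markers also moved in both directions, from -1.21 to 2.54 log2 units under ET-3 and -0.38 to 2.57 under NT. The part of these cells in the results was not tested. In bulk RNA, fewer cells that express a gene and less RNA per cell cannot be told apart.

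Together the 45 sarcomere genes took 1.52% and 1.64% of the summed value of the DMSO libraries. They took 0.264% and 0.273% in the ET-3 libraries and 0.271% and 0.248% in the NT libraries. The DMSO libraries stood apart, and the ET-3 and NT libraries overlapped. After leaving out Myl2 and Myl3, whose mean value over the 6 libraries was under 5, 43 sarcomere genes were tested with limma on log2(value + 1) among 13921 genes, and calls required an adjusted p (Benjamini-Hochberg) no higher than 0.05 together with a 2-fold or larger change. Under ET-3, 37 of the 43 were called lower and 1, Mylk2, was called higher, where 14.9% of all tested genes were called lower and 6.62% higher. Under NT, 37 were again called lower and 1 higher, where 13.2% of all tested genes were called lower and 7.30% higher. At the adjusted p alone, 39 were lower and 2 higher under ET-3 (33.2% and 30.6% of all tested genes), and 40 and 2 under NT (32.5% and 29.7%). The 37 lower genes were the same under both ligands, as both comparisons left Tpm1, Tpm3, Tmod4, Xirp1 and Des uncalled. The 2 comparisons share the DMSO libraries and are therefore not independent. The median log2 fold change of the 43 genes was -6.08 under ET-3 and -5.62 under NT, against -0.01 for all tested genes in both comparisons. With genes at 0 in both libraries of a ligand set to a limit of 3 units in each library, the medians were -4.81 and -5.62.

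**Figure D1:**
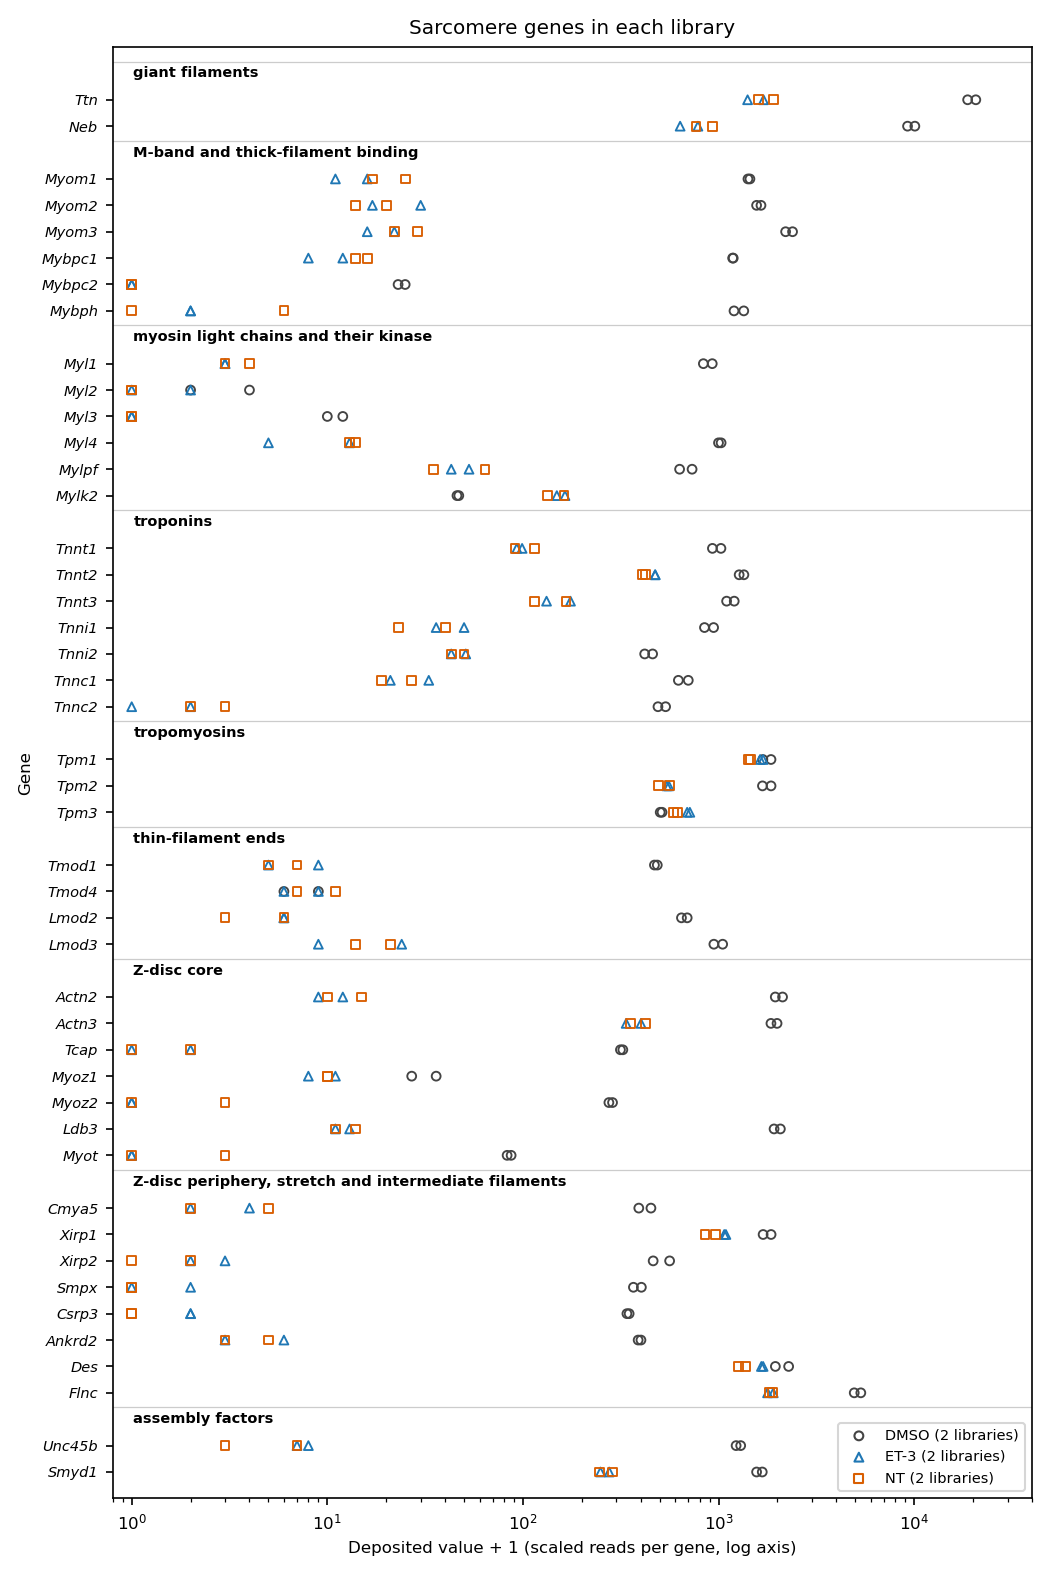
Deposited value plus 1 (log axis) of each of the 45 sarcomere genes in each library, grouped by role: grey circles DMSO, blue triangles ET-3, orange squares NT, 2 libraries per group. The DMSO circles stand to the right of all ligand points for 40 genes under ET-3 and 42 under NT (36.2% and 36.3% of all 18943 genes did the same), whereas Mylk2 and Tpm3 are reversed, Tmod4 overlaps under both ligands and Tpm1 and Myl2 overlap under ET-3.

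The extent of the fall separated the genes into classes, counted on the group means of the 44 genes other than Myl2. Under each ligand 4 genes were at 0 in both libraries, 20 kept under 2% of their DMSO level, 10 kept 2% to 25%, 7 kept 25% to 100% and 3 were at 100% or more. The class of 2% to 25% held the same 10 genes under both ligands: Ttn, Neb, Mylpf, Tnnt1, Tnnt3, Tnni1, Tnni2, Tnnc1, Actn3 and Smyd1. The class of 25% to 100% also held the same genes under both, Tnnt2, Tpm1, Tpm2, Myoz1, Xirp1, Des and Flnc. These classes are a description, with borders set by hand.

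Both giant filament genes fell by more than 10-fold but kept a measurable level. Ttn encodes titin, the elastic filament that runs from the Z-disc to the M-band, and lies at chr2:76703980-76982547 on the minus strand (mm10, as are all gene positions here). Its value was 18751 and 20645 in the DMSO libraries, 1406 and 1696 in ET-3 and 1912 and 1592 in NT. Neb encodes nebulin, the thin-filament ruler, and had 9244 and 10073 in DMSO, 635 and 783 in ET-3 and 928 and 765 in NT. Every ligand library was below both DMSO libraries for both genes, and the ET-3 and NT libraries overlapped. In log2 units Ttn changed by -3.67 ± 0.10 (SE) under ET-3 (adjusted p = 2.53e-09) and -3.49 ± 0.10 under NT (adjusted p = 3.79e-09), and Neb by -3.77 ± 0.10 and -3.52 ± 0.10 (adjusted p = 2.75e-09 and 4.34e-09). The titin level under ET-3 was 7.87% of the DMSO level, and the NT level was 8.89%.

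All 6 genes of the M-band and the thick-filament surface were called lower under both ligands. Among all tested genes 14.9% were called lower under ET-3 and 13.2% under NT. 5 of the 6 kept under 2% of their DMSO level, and the other, Mybpc2, was at 0. Mybph, myosin binding protein H, had the highest DMSO value per kilobase of exon in this group and was at 1198 and 1344 in DMSO, 1 and 1 in ET-3, and 5 and 0 in NT. Myom3, one of the myomesins that cross-link thick filaments at the M-band, was at 2200 and 2387 in DMSO, 15 and 21 in ET-3 and 21 and 28 in NT. Mybpc1, the slow myosin binding protein C, was at 1187 and 1179, then 7 and 11, then 13 and 15. For these genes all ligand values were under 30, against DMSO values of 1179 or more. The ET-3 level of Mybph rested on 2 reads over both libraries and was 0.0901% of the DMSO level by reads (exact 95% interval 0.0109% to 0.326%, counting error only). Of its exonic bases, 49.9% lie opposite exons of Adora1, and the sources name 2 library kits, so whether reads were assigned by strand is unclear. Log2 fold changes were -6.93 ± 0.18 and -6.50 ± 0.18 for Myom3 and -6.92 ± 0.21 and -6.31 ± 0.21 for Mybpc1, with ET-3 first and NT second (adjusted p no higher than 8.61e-09). Mybpc2, the fast myosin binding protein C, was expressed at only 22 and 24 in DMSO and at 0 in all 4 ligand libraries, at least 7.67-fold lower under each ligand on a limit of 3 units in each library. Myom1 and Myom2 were at 1412 to 1646 in DMSO and 10 to 29 under the ligands.

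The myosin light chains fell with the thick-filament proteins, whereas their kinase rose. Mylpf, the fast regulatory light chain, was at 631 and 731 in DMSO, 52 and 42 in ET-3 and 63 and 34 in NT. Myl1, the fast essential light chain, was at 835 and 927 in DMSO, 2 and 2 in ET-3 and 3 and 2 in NT. Myl4, the embryonic and atrial essential light chain, was at 998 and 1029 in DMSO, 12 and 4 in ET-3 and 13 and 12 in NT. Thus Mylpf kept 6.90% and 7.12% of its DMSO level under ET-3 and NT, whereas Myl1 kept 0.227% and 0.284% and Myl4 kept 0.789% and 1.23%. Log2 fold changes under ET-3 were -3.83 ± 0.24 for Mylpf, -8.20 ± 0.27 for Myl1 and -6.98 ± 0.36 for Myl4 (adjusted p = 4.46e-07, 6.81e-09 and 1.18e-07). Mylk2 encodes skeletal muscle myosin light chain kinase, which phosphorylates the regulatory light chain, and was at 46 and 45 in DMSO, 163 and 148 in ET-3 and 133 and 161 in NT. All 4 ligand libraries exceeded both DMSO libraries, with log2 fold changes of 1.75 ± 0.13 and 1.66 ± 0.13 (adjusted p = 1.80e-06 and 2.75e-06). It was the sole sarcomere gene called higher. The slow and ventricular light chains were barely expressed: Myl3 was at 9 and 11 in DMSO and at 0 in all ligand libraries, at least 3.33-fold lower, and Myl2 was at 1 and 3 in DMSO, 0 and 1 in ET-3 and 0 in both NT libraries.

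All 7 troponin genes were called lower under both ligands, as were 14.9% (ET-3) and 13.2% (NT) of all tested genes. However, isoforms of the same subunit fell to different extents. Tnnt3, fast troponin T, which links the complex to tropomyosin, was at 1098 and 1201 in DMSO, 131 and 174 in ET-3 and 165 and 114 in NT. Tnnc2, fast troponin C, the calcium sensor, was at 489 and 535 in DMSO, 0 and 1 in ET-3 and 2 and 1 in NT. Tnnc1, slow and cardiac troponin C, was at 622 and 699 in DMSO, 32 and 20 in ET-3 and 18 and 26 in NT. The 2 troponin C genes thus had like DMSO levels per kilobase, whereas under the ligands Tnnc1 kept 3.94% and 3.33% of its level and Tnnc2 kept a few reads. By reads, Tnnc2 kept 0.112% under ET-3 (exact 95% interval 0.00283% to 0.624%) and 0.240% under NT (0.0494% to 0.704%). Of the exonic bases of Tnnc2, 74.0% lie opposite exons of Ube2c. The log2 fold changes with ET-3 and with NT were -2.92 ± 0.17 and -3.06 ± 0.17 for Tnnt3, -8.50 ± 0.41 and -7.71 ± 0.41 for Tnnc2 and -4.65 ± 0.24 and -4.87 ± 0.24 for Tnnc1 (adjusted p at most 2.29e-07). The embryonic and cardiac Tnnt2 fell least of the troponins, from 1273 and 1346 in DMSO to 473 in both ET-3 libraries and 424 and 406 in NT, a log2 fold change of -1.47 ± 0.05 and -1.66 ± 0.05 (adjusted p = 8.01e-09 and 4.52e-09). Tnnt1, Tnni1 and Tnni2, the slow troponin T and the slow and fast troponin I, were at 418 to 1027 in DMSO and 22 to 113 under the ligands.

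The unequal falls changed the mix of isoforms, measured as shares of a family's summed value per kilobase of exon in each library. The length counts all annotated exons of a gene, 7752 bases for Tnnt2 against 2204 for Tnnt1 and 1583 for Tnnt3, and the size of a share depends on it. Tnnt2 made up 12.8% and 12.4% of troponin T in DMSO and 26.0% to 32.9% in the ligand libraries. Without division by length, Tnnt2 was the highest troponin T gene in DMSO (mean 1309.5, against 1149.5 for Tnnt3 and 978 for Tnnt1). Tnni1 made up 45.7% and 46.0% of troponin I in DMSO and 17.9% to 29.0% under the ligands, the rest being the fast Tnni2. Tnnc2 made up 50.6% and 49.9% of troponin C in DMSO and 0% to 12.6% under the ligands. The mix therefore moved toward the slow isoform for troponin C and toward the fast isoform for troponin I. In each of these families the DMSO and ligand libraries did not overlap, and with 2 libraries against 2 an exact two-sided permutation test cannot give a p under 0.333. The ligand shares of Tnnc2 rest on 0 to 2 units per library.

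**Figure D2:**
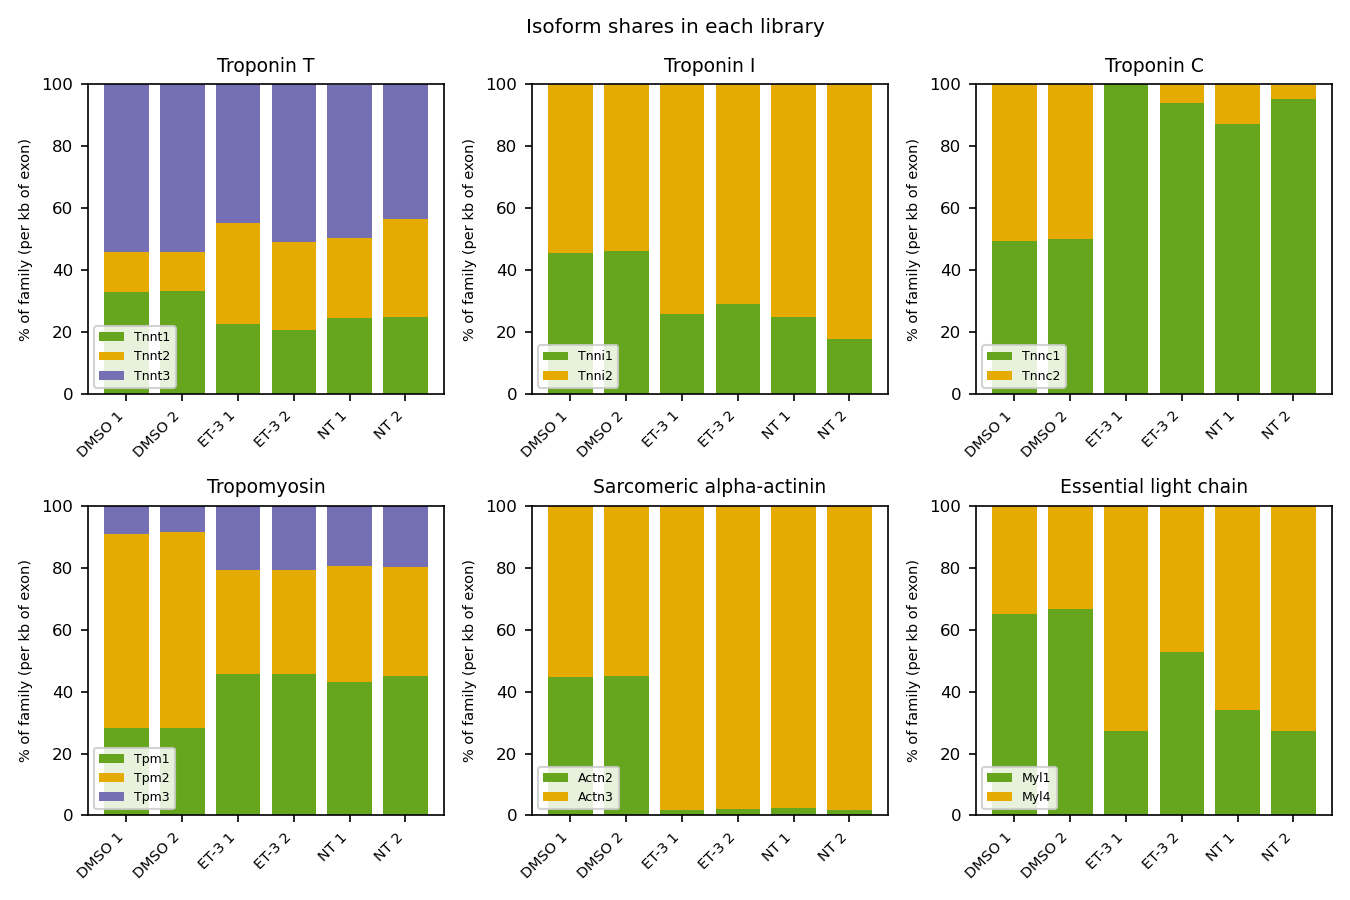
Share of each isoform in its family's summed value per kilobase of exon (percent, stacked bars adding to 100) in each of the 6 libraries, for 6 families. Actn2 drops from 44.6% and 44.9% of sarcomeric alpha-actinin in DMSO to between 1.79% and 2.48% under the ligands, and Tpm2 from 62.7% and 63.3% of tropomyosin to between 33.6% and 37.2%; the bars for troponin C and the light chains rest on few reads in the ligand libraries.

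Of the 3 tropomyosins, the coiled coils that lie along actin, Tpm2 alone was called lower, under both ligands, and Tpm1 and Tpm3 changed by less than 2-fold. Tpm2 was at 1675 and 1853 in DMSO, 556 and 543 in ET-3 and 560 and 494 in NT. Tpm1 was at 1683 and 1852 in DMSO, 1687 and 1629 in ET-3 and 1451 and 1421 in NT. Tpm3 was at 502 and 513 in DMSO, 712 and 690 in ET-3 and 615 and 587 in NT. The ET-3 libraries overlapped the DMSO libraries for Tpm1, whereas the NT libraries were below them, and for Tpm3 all ligand libraries were above. The log2 fold change of Tpm2 was -1.68 ± 0.07 with ET-3 and -1.74 ± 0.07 with NT (adjusted p = 2.41e-08 and 2.03e-08). That of Tpm1 was -0.09 ± 0.05 under ET-3 (adjusted p = 0.150) and -0.30 ± 0.05 under NT (adjusted p = 0.000612). Tpm3 differed by 0.47 ± 0.05 and 0.24 ± 0.05 (adjusted p = 1.94e-05 and 0.00169), which passed the p threshold but not the 2-fold one. With each treated pair averaged as 1 sample, Tpm1 and Tpm3 under NT no longer passed it (adjusted p = 0.127 and 0.0677). Tpm1, Tpm2 and Tpm3 also give cytoplasmic tropomyosins by alternative promoters and splicing, and gene-level values do not separate these from the muscle forms. Per kilobase, Tpm2 held 62.7% and 63.3% of the tropomyosin total in DMSO and 33.6% to 37.2% under the ligands, and Tpm1 became the first of the family with 43.3% to 45.8%. This order depends on the annotated exon lengths, 6485 bases for Tpm1 and 2909 for Tpm2. Without division by length, the DMSO means of Tpm1 and Tpm2 were alike (1767.5 and 1764).

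Of the proteins at thin-filament ends, the 3 expressed in DMSO fell and the fourth was near the detection limit throughout. Lmod3, a leiomodin that nucleates actin filaments in skeletal muscle, was at 945 and 1048 in DMSO, 23 and 8 in ET-3 and 20 and 13 in NT. Lmod2, its cardiac and skeletal relative, was at 645 and 690 in DMSO, 5 in both ET-3 libraries and 5 and 2 in NT. Tmod1, the tropomodulin that caps pointed ends, was at 469 and 485 in DMSO, 8 and 4 in ET-3 and 6 and 4 in NT. All 3 kept under 2% of their DMSO level, with log2 fold changes between -5.86 and -7.30 (adjusted p at most 6.34e-07). For Tmod1, 32.6% of exonic bases lie opposite exons of Tstd2. Tmod4, the skeletal muscle tropomodulin, was at 8 and 5 in DMSO, 5 and 8 in ET-3 and 6 and 10 in NT, and a difference was not detectable at this depth.

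All 7 Z-disc core genes with a row were called lower under both ligands (14.9% and 13.2% of all tested genes under ET-3 and NT). The 2 sarcomeric alpha-actinins, which cross-link actin at the Z-disc, parted. Actn2 was at 1948 and 2122 in DMSO, 8 and 11 in ET-3 and 14 and 9 in NT. Actn3, the fast-fiber alpha-actinin, was at 1851 and 1989 in DMSO, 336 and 400 in ET-3 and 420 and 355 in NT. Tcap, telethonin, which binds the end of titin at the Z-disc, was at 314 and 323 in DMSO, 1 and 0 in ET-3 and 1 and 0 in NT. Actn2 thus kept 0.467% and 0.565% of its DMSO level, Actn3 kept 19.2% and 20.2%, and Tcap was down to 1 read in each ligand group (0.179% by reads under ET-3, exact 95% interval 0.00453% to 1.00%, and 0.128% under NT, 0.00324% to 0.718%). With ET-3 and with NT the log2 fold changes were -7.61 ± 0.22 and -7.38 ± 0.22 for Actn2 (adjusted p = 3.39e-09 and 4.52e-09) and -2.38 ± 0.09 and -2.31 ± 0.09 for Actn3 (adjusted p = 1.95e-08 and 2.57e-08). Myoz2, a slow-fiber calcineurin-binding Z-disc protein, was at 274 and 286 in DMSO, 0 in both ET-3 libraries and 2 and 0 in NT. Myot, myotilin, was at 86 and 82 in DMSO, 0 in both ET-3 libraries and 0 and 2 in NT. Under ET-3 these were at least 93.3-fold and 28.0-fold lower, and under NT they kept 0.292% and 1.46% by reads (exact 95% intervals 0.0352% to 1.06% and 0.297% to 4.33%). Ldb3, the PDZ and LIM protein also called ZASP or Cypher, was at 1920 and 2068 in DMSO and 10 to 13 under the ligands, and Myoz1, the fast-fiber relative of Myoz2, was at 35 and 26 in DMSO and 7 to 10 under the ligands.

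Around the Z-disc the fall was again uneven, and 3 of the 8 genes, Des, Xirp1 and Flnc, kept more than 25% of their DMSO level. Des, desmin, the muscle intermediate filament protein that links Z-discs, was at 1950 and 2280 in DMSO, 1688 and 1654 in ET-3 and 1365 and 1257 in NT. Xirp1, an actin-binding Xin repeat protein, was at 1688 and 1854 in DMSO, 1068 and 1089 in ET-3 and 964 and 851 in NT. Flnc, muscle filamin, was at 4935 and 5333 in DMSO, 1902 and 1779 in ET-3 and 1880 and 1821 in NT. All ligand libraries were below the DMSO libraries for these 3 genes. Flnc was called lower, at -1.48 ± 0.05 and -1.47 ± 0.05 in log2 units (adjusted p = 9.49e-09 and 1.10e-08). Des passed the p threshold but not the 2-fold one, at -0.34 ± 0.07 with ET-3 and -0.69 ± 0.07 with NT (adjusted p = 0.00188 and 1.52e-05), as did Xirp1, at -0.71 ± 0.06 and -0.97 ± 0.06 (adjusted p = 6.40e-06 and 8.20e-07). With each treated pair averaged as 1 sample, Des no longer passed the p threshold (adjusted p = 0.188 and 0.0781). Without DMSO replicate 1 or NT replicate 1, Xirp1 passed the 2-fold threshold under NT (-1.03 and -1.05).

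The other genes of this group lost nearly all of their transcript. Xirp2, the relative of Xirp1, was at 561 and 462 in DMSO, 1 and 2 in ET-3 and 0 and 1 in NT. Smpx, a small costameric muscle protein, was at 366 and 402 in DMSO, 1 and 0 in ET-3 and 0 in both NT libraries. Csrp3, muscle LIM protein, was at 339 and 348 in DMSO, 1 in both ET-3 libraries and 0 in both NT libraries. Under NT, Smpx was at least 128-fold and Csrp3 at least 114.5-fold lower, and under ET-3 they kept 0.149% and 0.332% by reads (exact 95% intervals 0.00377% to 0.833% and 0.0401% to 1.20%). Xirp2 kept 0.332% under ET-3 and 0.0793% under NT by reads (exact 95% intervals 0.0684% to 0.973% and 0.00200% to 0.443%), so the pair Xirp1 and Xirp2 ended at 51.2% to 60.9% and under 1% of their DMSO levels. Ankrd2, a stretch-responsive ankyrin repeat protein, was at 387 and 400 in DMSO, 5 and 2 in ET-3 and 4 and 2 in NT, and Cmya5, myospryn, was at 450 and 390 in DMSO and 1 to 4 under the ligands, with 20.7% of its exonic bases opposite exons of A630019I02Rik.

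Both assembly factors fell, also to different extents. Smyd1, a methyltransferase that acts with the chaperone system in thick-filament assembly, was at 1563 and 1671 in DMSO, 248 and 275 in ET-3 and 285 and 244 in NT. Unc45b, the myosin chaperone of striated muscle, was at 1228 and 1296 in DMSO, 6 and 7 in ET-3 and 6 and 2 in NT. Smyd1 kept 16.2% and 16.4% of its DMSO level and Unc45b kept 0.515% and 0.317%, with log2 fold changes under ET-3 of -2.62 ± 0.08 and -7.40 ± 0.35 (adjusted p = 4.26e-09 and 6.41e-08).

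**Figure D3:**
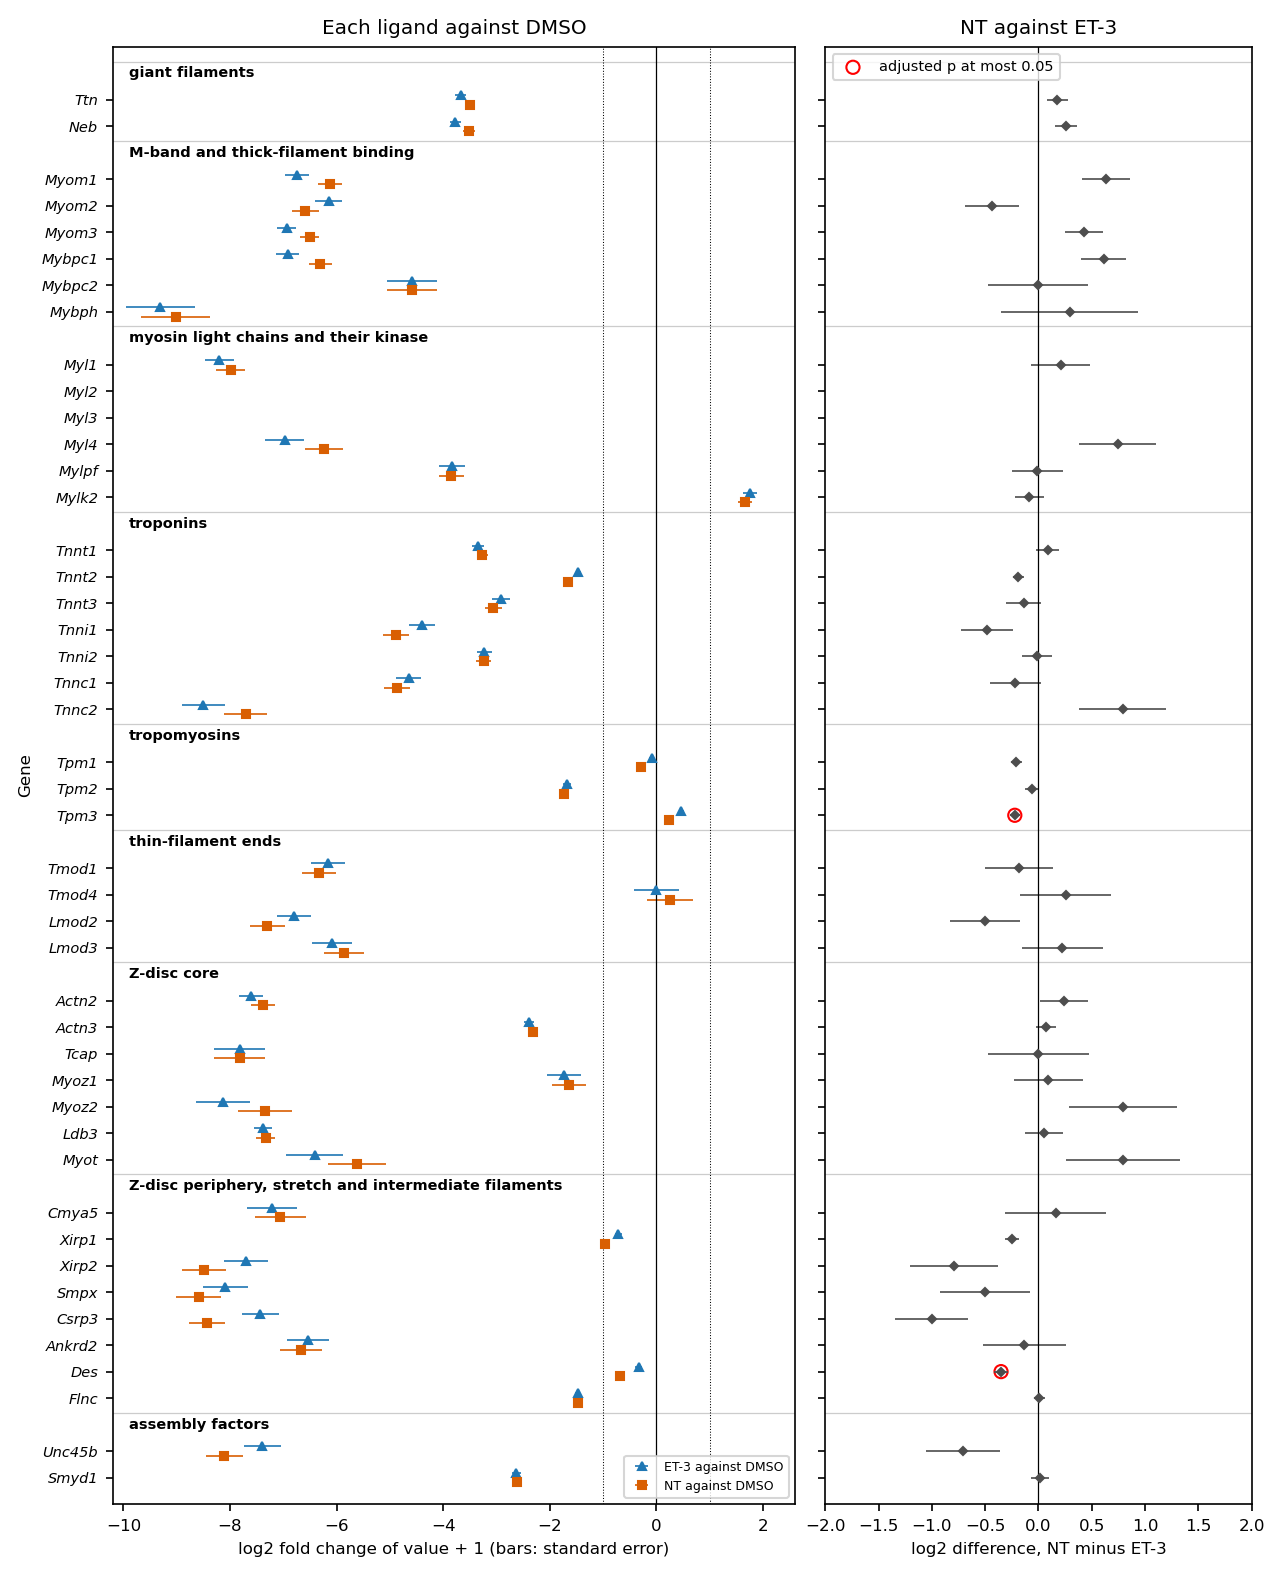
Left, log2 fold change of value + 1 of each tested sarcomere gene under ET-3 (blue triangles) and NT (orange squares) against DMSO, with bars for 1 standard error and dotted lines at a 2-fold change; Myl2 and Myl3 were not tested, and for genes at 0 in both libraries of a ligand the point is a fitted value that depends on the added 1. Right, the difference NT minus ET-3 on the same scale, which lies between -1 and 0.79, where red circles mark Des and Tpm3, whose adjusted p was no higher than 0.05.

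The 2 ligands were hardly separable on these genes. With limma, 0 of the 43 genes were called lower in NT than in ET-3 and 0 higher, where 0.0287% and 0.0503% of all tested genes were called. 10 of the 43 had an unadjusted p under 0.05, as did 19.9% of all tested genes, and voom on the recovered reads also called 0. The differences ran from -1 (Csrp3) to 0.79 log2 units, with a median of 0.00, against a median of 0.03 for all tested genes. At the adjusted p alone, at which 2.05% of all tested genes were lower in NT, Des was lower in NT by 0.35 ± 0.07 (adjusted p = 0.0420) and Tpm3 by 0.22 ± 0.05 (adjusted p = 0.0490). Neither held up throughout: the threshold was lost in 11 alternatives for Des and 12 for Tpm3, among them the replicate block (adjusted p = 0.0731 and 0.0791). For both genes the 2 NT libraries were below the 2 ET-3 libraries. The standard errors of genes with few reads reached 0.65, so even a 2-fold difference could be missed for those genes. Csrp3, at -1 ± 0.34 log2 units, had a limma adjusted p of 0.146.

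Grouped by the fiber type in which each isoform is best known, both sets fell. Of the 9 fast-fiber genes, 8 were called lower and 1, Mylk2, higher under each ligand, with a median log2 fold change of -3.23 under ET-3 and -3.24 under NT. Of the 9 slow-fiber genes, 7 were tested and all 7 were called lower under each ligand, with medians of -6.54 and -6.31. The fast set spanned 1.75 (Mylk2) to -8.50 (Tnnc2) under ET-3 and the slow set -3.35 (Tnnt1) to -8.13 (Myoz2), so the sets overlapped, and the difference of their medians was not tested. Both embryonic isoforms, Tnnt2 and Myl4, were called lower under both ligands. The shares of all tested genes called lower were 14.9% under ET-3 and 13.2% under NT, and those called higher were 6.62% and 7.30%. All tested genes had a median of -0.01 in both comparisons.

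Beyond the members, 42 further genes of the sarcomere, Z-disc and its sarcoplasmic neighbours were listed, of which 39 had a row and 36 were tested. Under ET-3 26 of these were called lower (14.9% of all tested genes) and under NT 27 (13.2%). Called higher were 0 under either (6.62% and 7.30% of all tested genes), and the median log2 fold changes were -2.15 and -2.10. At the adjusted p alone, 3 were higher under ET-3 and 2 under NT, as were 30.6% and 29.7% of all tested genes. The list was led in DMSO by Myh3, embryonic myosin heavy chain, at 5115 and 5798 in DMSO, 14 and 17 in ET-3 and 32 and 15 in NT. Palld, palladin, an actin cross-linker also found outside muscle, was at 3121 and 3370 in DMSO and 764 to 853 under the ligands. Against the majority, the LIM protein genes Pdlim1 and Fhl3 were slightly higher under both ligands (log2 fold changes 0.42 and 0.45 under ET-3, 0.30 and 0.29 under NT) and Ankrd1 under ET-3 (0.23), at adjusted p of at most 0.00984 but under 2-fold.

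The 18 cytoplasmic or smooth muscle paralogs of sarcomere proteins were for the most part not called, as were most of all tested genes. Under each ligand 5 were called lower and 0 higher. Of all tested genes, 14.9% were called lower under ET-3 and 13.2% under NT, and 6.62% and 7.30% higher. At the adjusted p alone 8 were lower and 7 higher under ET-3 (33.2% and 30.6% of all tested genes) and 9 were lower and 4 higher under NT (32.5% and 29.7%), with a median log2 fold change of 0.06 under ET-3 and -0.19 under NT. The 5 called were Lmod1, the smooth muscle leiomodin, the light chains Myl6b, Myl9 and Myl12b, and the smooth muscle and non-muscle light chain kinase Mylk. Flna, the ubiquitous filamin, was at 4168 and 4530 in DMSO, 5849 and 5569 in ET-3 and 4856 and 4639 in NT, in contrast to the fall of Flnc. Actn4, non-muscle alpha-actinin, was at 1926 and 2058 in DMSO, 2316 and 2155 in ET-3 and 1949 and 1816 in NT. Vim, vimentin, was at 1647 and 1857 in DMSO, 1935 and 1804 in ET-3 and 1475 and 1366 in NT, below DMSO in NT and overlapping it in ET-3. Mylk, the paralog of Mylk2, was at 120 and 104 in DMSO, 4 and 8 in ET-3 and 5 and 10 in NT, so that the 2 kinase genes moved in opposite directions.

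**Figure D4:**
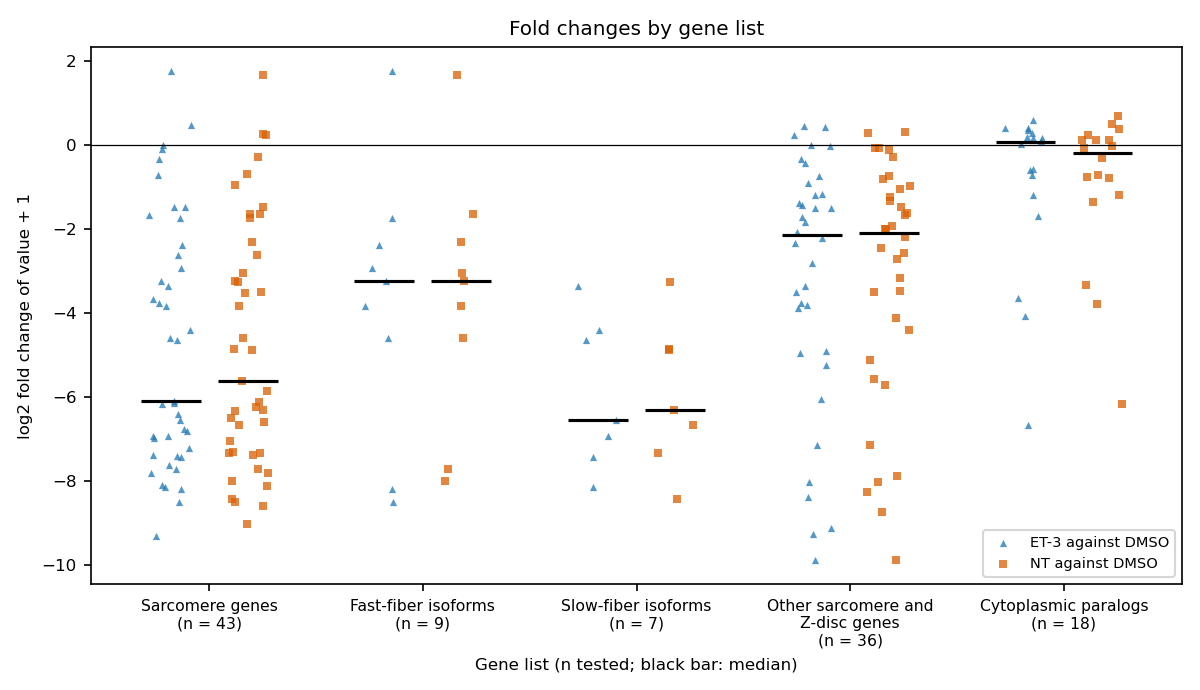
Log2 fold change of value + 1 under ET-3 (blue triangles) and NT (orange squares) against DMSO for each tested gene of 5 lists, with black bars at the list medians; the fast and slow lists are subsets of the sarcomere genes. The medians are -6.08 and -5.62 for the sarcomere genes, -2.15 and -2.10 for the further sarcomere and Z-disc genes, and 0.06 and -0.19 for the cytoplasmic paralogs.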

How the data were processed

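RNA of FACS-purified MuSCs cultured with DMSO, ET-3 or NT was sequenced by the authors, with 2 libraries per group in the files used here; the series design text names triplicates. Per the labels' processing notes, FastQC, Trimmomatic 0.38, STAR 2.7.7a, featureCounts 1.6.5 (Subread) and DESeq2 1.30.0 were used with mm10. The methods name another trimmer and other versions of the aligner, counter and test, so which made the files is uncertain. The labels name a SMART-Seq HT kit and the methods a stranded one.

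The deposited values are a scaled signal and not raw read counts: whole numbers equal to reads times 1 factor per library. The fitted factors were 0.781 to 1.19. Missing whole numbers showed this in DMSO replicate 2 and both ET-3 libraries. In DMSO replicate 1 and both NT libraries the factor was under 1 and rests on how often each whole number occurs. There a value can match more than 1 read number, so recovered reads, and intervals built on them, are approximate. The recovered reads gave 3629301 to 5396581 reads per library, and no column was left unused. The highest density in a library was 0.907 reads per exonic base, among genes of at least 500 exonic bases. In the DMSO average, 15 sarcomere genes lay above the 99th percentile of these genes (0.341), up to 0.684 for Tnnt3. In each ligand average 1 gene, Des, did so. Duplicate handling is not given in the sources used here. Whether it held down high DMSO values, and with them the percentages kept and isoform shares, was not tested.

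Samples were grouped by their labels. Since the signal was not raw counts, log2(value + 1) of genes with a mean of at least 5 (13921 tested, 5022 left out) was fitted for all 6 libraries with limma 3.58.1 (trend, empirical Bayes) in R 4.3.3, and p-values were Benjamini-Hochberg adjusted over all tested genes. Called genes had an adjusted p of at most 0.05 and a fold change of at least 2. The fit was also run on simulated Poisson counts with planted fold changes. These held no spread between replicates beyond counting error, so they cannot show how often real libraries give false calls. Genes were matched to GENCODE vM21 (GRCm38), 18920 of 18943 by identifier; exon lengths come from it. Limits for genes at 0 use 3 units of the deposited value in each library, and intervals are exact (95%, conditional on the total reads) and cover counting error only.

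The members, lists and classes were chosen with earlier results of these data known. Within each role, values by library are given for the 3 members with the highest DMSO value per kilobase, each member not called lower and each with a ligand library at 0. Tnnt2 was added after its values were seen, and the others are given more briefly. Of further lists, the 3 highest in DMSO and those against the majority are named, except 1 gene that is not reported here. Alternatives were other filters, scalings, pseudocounts, voom on recovered reads, a replicate block, other samples in the fit, averaged pairs and leaving out each library.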

Additional observations from a re-analysis of the deposited data

Results flagged for a closer look

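Of the 43 sarcomere genes tested, 2 differed between the ligands at an adjusted p no higher than 0.05 when NT and ET-3 were compared with each other. Des, desmin, was lower in NT than in ET-3 by 0.35 log2 units (-0.350956, limma adjusted p = 0.0420), with 1365 and 1257 in NT and 1688 and 1654 in ET-3. Tpm3 was lower by 0.22 log2 units (-0.221921, limma adjusted p = 0.0490), with 615 and 587 in NT and 712 and 690 in ET-3. Both differences are under 2-fold. As both NT libraries were below both ET-3 libraries, leaving out a library, averaging pairs or the replicate block could not turn their direction. Over the alternatives the difference ran from -0.41 to -0.29 for Des, with adjusted p from 0.00188 to 0.712, and from -0.26 to -0.19 for Tpm3, with adjusted p from 0.0136 to 0.712, so the direction was kept under every alternative run and the threshold was lost in 11 alternatives for Des and 12 for Tpm3, the replicate block included (adjusted p = 0.0731 and 0.0791).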

How the results depend on the processing

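Under every alternative run, 35 to 39 sarcomere genes were called lower under ET-3 and 35 to 40 under NT, against 37. Called higher were 1 under each ligand, and 2 under each (Mylk2 and Tpm3) without the fold threshold, where 2 (Des and Tpm3) were also lower in NT than in ET-3. The calls that changed were of genes with low values or small changes: Mybpc2 and Myoz1 were not tested at a mean of at least 20, Myoz1 lost its call with each treated pair averaged, Myl3 was gained without a filter, and Xirp1 passed 2-fold under NT without DMSO replicate 1 or NT replicate 1. Library totals moved the median of all tested genes from -0.01 to 0.08 under ET-3 and 0.10 under NT and changed no call of a sarcomere gene.

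The median log2 fold change of the sarcomere genes depended on how low values were treated. Under ET-3 it was -4.65 without a filter and -4.45 with a pseudocount of 5. Under NT it was -4.88 without a filter, -5.99 at a mean of at least 20, -5.90 with a pseudocount of 0.5, -4.70 with a pseudocount of 5, -5.92 with voom and -5.41 with averaged pairs. Leaving out 1 library at a time gave -6.41 to -5.38 under ET-3 and -5.65 to -5.28 under NT. For NT against ET-3 the median was -0.065 with voom and -0.076 to 0.061 without 1 library. Tmod4 under NT turned from 0.26 to -0.037 without DMSO replicate 2 and -0.070 without NT replicate 2, within a range of -0.070 to 0.58 over the libraries left out. The cause was not tested. Of the results for single genes, 1370 kept direction and side of the threshold, 29 lost it, 1 gained it (Tpm1 under ET-3) and 2 turned, counting each gene under each alternative. The losses were 11 of Des and 12 of Tpm3 for NT against ET-3, and 1 each, with averaged pairs, of Des and Myoz1 under both ligands and of Tpm1 and Tpm3 under NT.

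Libraries with the same replicate number did not deviate together over all tested genes (correlations -0.01, -0.07 and -0.02). These correlations cannot exclude a weak pairing or one limited to some genes. With the replicate block 37 genes were again lower and 1 higher under each ligand, with medians of -6.08 and -5.62, and 0 were called between the ligands. Between the ligands Des and Tpm3 lost the p threshold under the block (limma adjusted p = 0.0731 and 0.0791).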
